A study of Rattus norvegicus with 4 samples.

Results

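Cell cycle and mitosis genes were examined in cultured rat ovaries with and without GDNF, glial cell line-derived neurotrophic factor, which signals through Gfra1 and Ret. The list held 53 genes, chosen by name with earlier results of these data known. Of these, 51 had an array probe set annotated with that symbol alone, among 14217 genes on the array with such a probe set. Each gene was represented by its probe set with the highest mean signal over the 4 arrays. Of the 51 genes, 50 were bright enough to be tested, among 10606 genes tested. Rrm2 and Tpx2 had no probe set annotated with their symbol alone, and Cdk6 was below the signal filter.

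Whole ovaries of 4-day-old female rat pups were cultured for 2 days, with 6 to 10 ovaries pooled per sample. The control group (2 samples) received no factor and the GDNF group (2 samples) received GDNF, according to the titles and descriptions. The treatment text deposited with all 4 samples describes the control only, and neither a dose nor a source of GDNF is given in the sources used here. The medium of both groups contained insulin at 200 ng/ml, transferrin at 27.5 ug/ml, ascorbic acid at 0.05 mg/ml, bovine albumin, Albumax, gentamicin, streptomycin and penicillin. No strain is given. Ovaries of 1 animal were not placed in the same group, but nothing says whether the 2 samples of a group came from separate litters or culture days. P-values therefore measure only the spread among these 4 arrays, part of which can be technical. The number of arrays, 2 per group, limits the precision of every value, and 2 against 2 cannot give a two-sided exact permutation p below 0.333.

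A dividing cell copies its DNA in S phase, driven by cyclin D with Cdk4 or Cdk6 and then cyclin E or A with Cdk2. It enters mitosis with cyclin B and Cdk1, and leaves it once the anaphase-promoting complex has removed cyclin B. In the neonatal ovary the somatic pre-granulosa and stromal cells divide, while oocytes are arrested in meiotic prophase. Oocytes also store transcripts of cyclin B and other M-phase genes, so a signal of such a gene in whole ovary cannot be assigned to dividing cells. In whole-organ RNA, fewer cells of a type and less RNA per cell cannot be told apart.

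Signals of a gene are given with replicate 1 before replicate 2 in each group. They are the arrays' linear values, with the same trimmed mean on every array. A log2 fold change is GDNF minus control on the log2(signal + 1) scale, with limma's standard error (SE) or 95% interval. Median signal was 36.7 to 41.1 per array. Across probe sets, which are not independent, the log2 signals correlated at r = 0.983 between the control samples and 0.970 between the GDNF samples. Samples with the same replicate number in different groups correlated at 0.982 and 0.985. The ratio of 3' to 5' signal, an indicator of RNA integrity, was 2.62 to 3.76 for beta-actin and 1.11 to 1.44 for Gapdh, with overlap between the groups for both.

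Among ovarian markers, the oocyte genes Zp3 (at least 1664.8) and Ooep (at least 1884.2) and the granulosa gene Foxl2 (at least 591) were bright on every array. Not all markers were bright. The granulosa markers Esr2 (1.5 to 10.1) and Cyp19a1 (5 to 16.3) and the oocyte marker Mos (0.3 to 1) were below the filter. The oocyte marker Kit was dim (24.5 to 80). Of 4 erythroid markers, Hbb gave signal on every array (1445.3 to 1790.3) and Alas2 was dim (26.5 to 31.5). Ahsp (9.3 to 15.5) and Slc4a1 (8.5 to 11.9) were below the filter.

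Many of these genes share promoter elements that place them in the cycle. The cell cycle genes homology region (CHR) binds the MuvB complexes that time G2 and M phase genes, the CCAAT box binds NF-Y, and E2F sites time G1 and S phase genes. The 250 bases before the RefSeq start (assembly GRCr8) were searched on both strands for CHR, spelled TTTGAA or alternatively TTCGAA, and for the CCAAT box, spelled CCAAT. The E2F site was searched as TTCCCGC, next as TTGGCGC, next as TTCGCGC and last as TTGCCGC. Hits of different elements could overlap. The table held 42 promoters for 41 of the 53 genes. A CCAAT box lay in 73.8% of them, against 34.0% of all 33469 promoters in the table. CHR letters lay in 35.7% against 17.4%, and E2F letters in 26.2% against 7.59%. Only 14 of the 42 windows end at the outermost annotated start of the gene.

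The windows shown are from genes described in detail: Ccnb1, Plk1 and Mcm5, which had higher means in GDNF, and Top2a and Pcna, which differed little. They were picked after their values were seen, from windows ending at the outermost start. Capitals mark the letters of any searched element, on either strand.
Ccnb1 (chr2:33655226-33655475, minus strand): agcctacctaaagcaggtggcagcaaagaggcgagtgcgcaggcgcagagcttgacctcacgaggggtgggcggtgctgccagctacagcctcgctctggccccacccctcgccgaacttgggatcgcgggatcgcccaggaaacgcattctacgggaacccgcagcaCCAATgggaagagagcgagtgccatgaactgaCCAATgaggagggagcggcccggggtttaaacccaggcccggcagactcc
Plk1 (chr1:186147408-186147657, plus strand): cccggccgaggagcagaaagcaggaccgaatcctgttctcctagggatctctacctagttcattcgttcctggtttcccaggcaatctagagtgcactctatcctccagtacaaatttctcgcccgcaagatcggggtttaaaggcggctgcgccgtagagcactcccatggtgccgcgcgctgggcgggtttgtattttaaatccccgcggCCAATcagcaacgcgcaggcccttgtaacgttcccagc
Top2a (chr10:84473094-84473343, minus strand): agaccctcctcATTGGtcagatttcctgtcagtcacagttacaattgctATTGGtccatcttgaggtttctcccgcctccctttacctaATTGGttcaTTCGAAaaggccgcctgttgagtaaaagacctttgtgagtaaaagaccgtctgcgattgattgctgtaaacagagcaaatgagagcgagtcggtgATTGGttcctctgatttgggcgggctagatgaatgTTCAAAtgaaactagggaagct
Mcm5 (chr19:13488563-13488812, plus strand): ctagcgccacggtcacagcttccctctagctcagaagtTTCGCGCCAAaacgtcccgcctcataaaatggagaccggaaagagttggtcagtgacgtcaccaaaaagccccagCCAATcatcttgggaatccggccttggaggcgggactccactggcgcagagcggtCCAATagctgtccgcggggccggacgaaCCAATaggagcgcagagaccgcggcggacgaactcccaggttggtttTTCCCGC
Pcna (chr3:139955821-139956070, minus strand): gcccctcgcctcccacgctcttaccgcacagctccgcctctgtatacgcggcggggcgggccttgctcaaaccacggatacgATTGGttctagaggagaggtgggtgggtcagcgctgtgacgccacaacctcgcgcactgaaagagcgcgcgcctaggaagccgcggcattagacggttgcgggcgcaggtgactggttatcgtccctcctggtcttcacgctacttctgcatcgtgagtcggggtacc
Ccnb1 and Plk1 hold CCAAT letters with no CHR letters of the searched form. Top2a holds both, with 4 CCAAT and 2 CHR matches. Mcm5 holds 3 CCAAT and 3 E2F matches, 2 of which overlap, while Pcna holds 1 CCAAT match alone. A match is a description of these letters only.

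No cell cycle gene passed the adjusted threshold, and neither did any other probe set. In limma's test none of the 18630 probe sets had an adjusted p under 0.05 (0%), and every cell cycle gene had an adjusted p of 0.999. Without adjustment, 508 probe sets (2.73%) had p under 0.05, and 3.12% of genes by their brightest probe set. Cdc14a was the 1 cell cycle gene of 50 that did, in a list chosen with earlier results of these data known.

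The list leaned toward higher signal in GDNF by a small amount. Means were higher in GDNF for 34 of the 50 tested genes, against 48.6% of all genes tested. Groups did not overlap, with GDNF higher, for 14 genes (28%, against 13.8% of all genes) and, with GDNF lower, for 2 genes (4%, against 18.1%), Cdc14a and Tk1. No least gap was required, and Nusap1 and Mcm4 among the 14 were near ties. The difference exceeded the larger within-group range for 10 genes (20%, against 20.5% of all genes), which is the background share. The median log2 fold change was 0.065, a 1.05-fold difference, beside -0.0057 over all genes tested. The genes share samples and cells and were chosen with earlier results known, so these counts are no test. For 35 of the 50 genes the 95% interval lay within 1.5-fold in either direction, which is the precision of the data for most of the list.

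**Figure D1:**
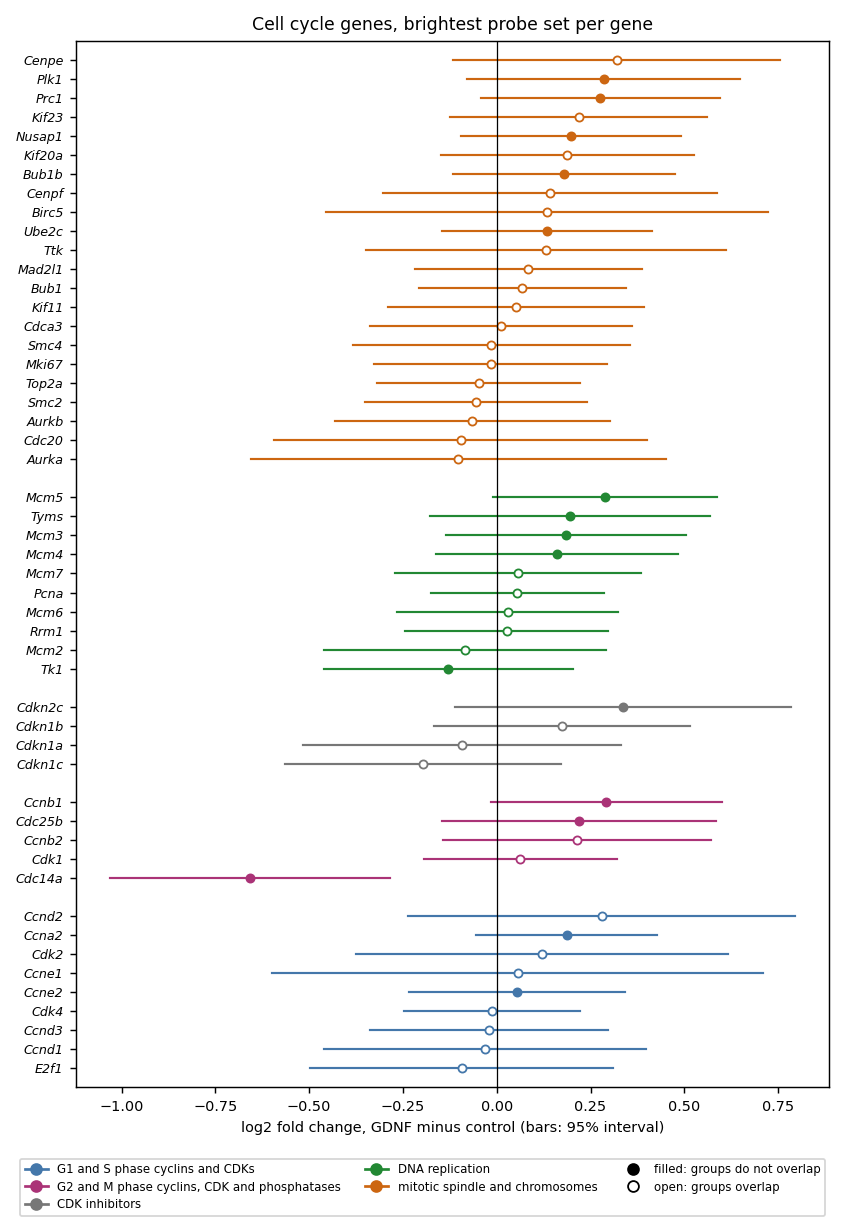
Log2 fold change (GDNF minus control, horizontal axis) of each of the 50 tested cell cycle genes, by class, with limma's 95% interval as a bar and filled points where the 2 control and 2 GDNF samples did not overlap. Every interval except that of Cdc14a crosses 0.

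The lean was uneven over the samples. GDNF replicate 2 was the highest sample for 23 of the 50 genes (46%, against 32.7% of all genes), and control replicate 1 was the lowest for 23 (46%, against 25.6%). Relative to each gene's mean over the samples, the list median was -0.085 in control replicate 1, -0.0068 in control replicate 2, -0.010 in GDNF replicate 1 and 0.081 in GDNF replicate 2. Control replicate 2 and GDNF replicate 1 were thus almost level. The list median log2 fold change was 0.042 without control replicate 1, 0.14 without control replicate 2, 0.10 without GDNF replicate 1 and 0.042 without GDNF replicate 2. Of the 50 genes, 18 were higher in GDNF and 2 were lower whichever sample was left out, and 30 changed direction at least once. A gene without overlap keeps its direction here by construction, so these counts partly repeat the earlier ones. Their shares over all genes were not computed, so they cannot tell the list from the background.

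**Figure D2:**
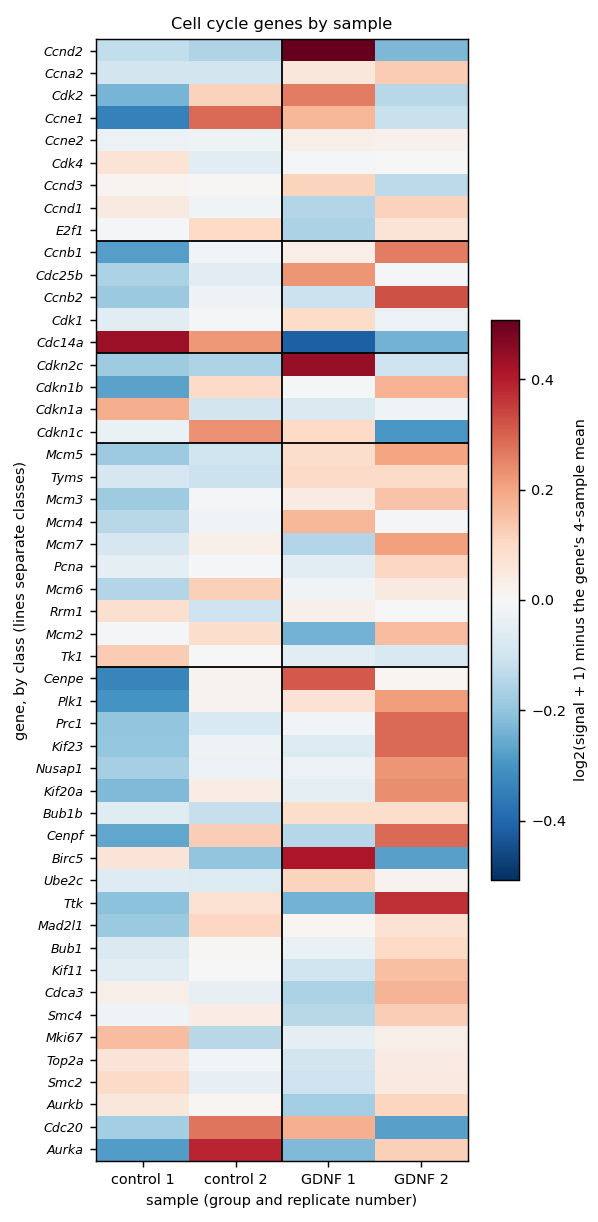
Log2(signal + 1) minus the gene's mean over the 4 samples, for the 50 tested cell cycle genes (rows, by class) in each sample (columns). Control replicate 1 is the lowest sample for 23 genes and GDNF replicate 2 the highest for 23, while Cdc14a is high in both control samples.

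Most oocyte markers were also lowest in control replicate 1 and highest in GDNF replicate 2. Most surface epithelium and leukocyte markers had the reverse order, highest in control replicate 1 and lowest in GDNF replicate 2. All 9 oocyte markers tested had a higher mean in GDNF (against 48.6% of all genes), 5 of them without overlap (against 13.8%). Their median log2 fold change was 0.39. Their summed signal, over 10 markers with a probe set, was 6946.4 and 8342 in the controls against 8644.4 and 10704.7 with GDNF. None was listed at 0, and Mos was below the filter at 0.3 to 1. Control replicate 1 was the lowest sample for 8 of the 9 and GDNF replicate 2 the highest for 7. The part of oocyte RNA in the cell cycle signals was not tested.

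Somatic marker lists differed in direction. Summed granulosa signal (14 markers) was 6635.3 to 7118.6 in control and 7212.9 to 7448.6 in GDNF samples. With GDNF, 8 of the 12 granulosa markers tested had higher means (5 without overlap) and 4 had lower ones (3 without overlap). Over all genes tested, 48.6% had a higher mean, and 13.8% (higher) and 18.1% (lower) did not overlap. The lower markers without overlap were Amhr2 (-0.25), Kitlg (-0.35) and Irx3 (-0.39). Surface epithelium (8 markers) had sums of 5658.8 to 6669.8 in control and 4943.8 to 5569.4 in GDNF samples, with 7 of 8 means lower in GDNF. Leukocyte markers had 839 to 1069.6 and 711.8 to 1126.4, and endothelial markers 1382.1 to 1384.3 and 1211.9 to 1290.7. Means were lower in GDNF for 7 of the 8 leukocyte and 6 of the 6 endothelial markers tested. For these lists and surface epithelium the background is 5454 of 10606 genes with a lower mean. Erythroid sums (4 markers) were 1497.7 to 1838 and 1801 to 1838, and those of stroma and theca (12 markers) 15154.6 to 16077.1 and 15498.6 to 15847.4. Control replicate 1 was the highest sample for 6 of the 8 surface epithelium markers and 7 of the 8 leukocyte markers. GDNF replicate 2 was the lowest for 6 of the 8 in each of these 2 lists. No marker of the somatic lists was listed at 0.

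**Figure D3:**
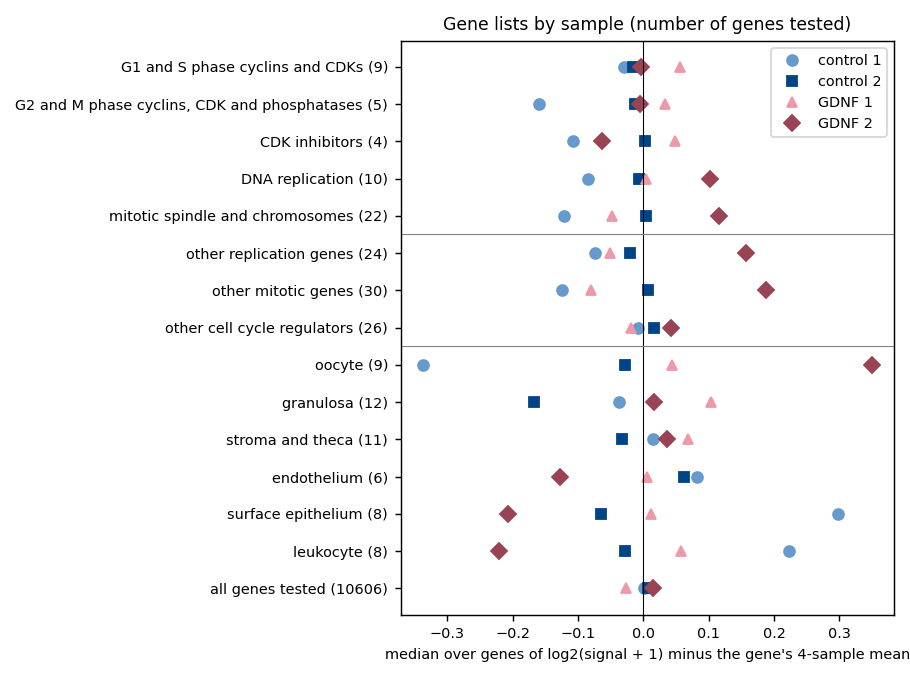
Median over the genes of each list of log2(signal + 1) minus the gene's mean over the samples (horizontal axis), 1 point per sample, with the number of genes tested in brackets. Oocyte genes run from -0.34 in control replicate 1 to 0.35 in GDNF replicate 2, and mitotic genes from -0.12 to 0.12 in the same 2 samples. Surface epithelium runs the other way in these samples, from 0.30 to -0.21, and leukocyte genes from 0.22 to -0.22.

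G1 and S phase cyclins and kinases differed little. Of 9 tested, 5 had higher and 4 lower means in GDNF, with a median log2 fold change of 0.054. Groups did not overlap for 2, both higher (22.2%, against 13.8% of all genes), and for 0 with GDNF lower (against 18.1%). The 3 D-type cyclins, which couple growth factor signals to the cycle, were uneven. Ccnd2, the D-type cyclin that granulosa cells need to proliferate, had signals of 748.7 and 734.9 in the controls against 1162.8 and 697.5 with GDNF. GDNF replicate 1 stood alone, and the other GDNF sample was below both controls. The log2 fold change of 0.28 (SE 0.22) became -0.089 without GDNF replicate 1.

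Ccnd1 had 79.8 and 76.3 in the controls against 69.6 and 83.8 with GDNF, with the controls inside the GDNF range (log2 fold change -0.031, 95% interval -0.46 to 0.40). Ccnd3 had 251 and 249.5 in the controls against 268.5 and 226.4 with GDNF, again with the controls inside (-0.021, interval -0.34 to 0.30). Both changed direction when 1 sample was left out, Ccnd1 without control replicate 1 (0.0014) or GDNF replicate 1 (0.10) and Ccnd3 without GDNF replicate 2 (0.10). A dimmer probe set of Ccnd1 had 58.2 and 56.2 in the controls against 51.9 and 33.4 with GDNF. It was lower in GDNF without overlap (-0.45, SE 0.26), while the dimmest Ccnd1 probe set had 0.038 (SE 0.31).

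Ccna2, the cyclin of S phase and of entry to mitosis, separated the groups. Its signals were 538.5 and 538.3 in the controls against 597 and 628.9 with GDNF, so the GDNF samples were both above nearly equal controls. The log2 fold change was 0.19 (SE 0.10, 95% interval -0.055 to 0.43), and 0.15 to 0.22 when any 1 sample was omitted. Cdk2, the partner of cyclins E and A, had 80.8 and 103.6 in the controls against 114.5 and 86.6 with GDNF, overlapping (0.12, SE 0.21). It turned to -0.056 without control replicate 1 and -0.079 without GDNF replicate 1.

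E2f1, a transcription factor of S phase genes, had 90.4 and 97.5 in the controls against 81.1 and 95.3 with GDNF, overlapping (-0.094, SE 0.17), and 0.021 without GDNF replicate 1. Cdk6 was dim, at 8.8 and 2.6 in the controls against 4.2 and 9.7 with GDNF, and was not tested. The cyclins E and Cdk4 had log2 fold changes between -0.013 and 0.056. Of these, Ccne2 did not overlap, with 203.5 and 204.1 in the controls against 212.1 and 211.1 with GDNF, although its log2 fold change was 0.054 (SE 0.12).

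Among G2 and M phase regulators, 4 of 5 genes had a higher mean in GDNF (against 48.6% of all genes), and the fifth was Cdc14a. The class median was 0.21, and 0.10 to 0.27 when any 1 sample was omitted. Ccnb1, the cyclin that activates Cdk1 for mitosis and for meiotic resumption, had signals of 1009.5 and 1213.7 in the controls against 1252.9 and 1467.2 with GDNF. The groups did not overlap, but control replicate 2 and GDNF replicate 1 were close. The log2 fold change was 0.29 (95% interval -0.016 to 0.60), and 0.16 without control replicate 1. A second probe set of Ccnb1 overlapped, with 691.9 and 866.9 in the controls against 804.5 and 933.6 with GDNF (0.16, SE 0.14).

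Ccnb2, a second mitotic B-type cyclin, had 1692.6 and 1898.3 in the controls against 1792.3 and 2413.1 with GDNF. GDNF replicate 2 was well above the other 3 samples, and without it the log2 fold change of 0.21 (SE 0.15) became -0.00016. Cdk1, the mitotic kinase, had 471.8 and 490 in the controls against 524.4 and 481.1 with GDNF, overlapping (0.063, 95% interval -0.19 to 0.32). Cdc25b, a phosphatase that activates Cdk1, had 116.8 and 125.4 in the controls against 152.8 and 130.2 with GDNF. Its groups did not overlap, and the log2 fold change was 0.22 (SE 0.15), or 0.10 without GDNF replicate 1.

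Cdc14a, a dual-specificity phosphatase that reverses CDK phosphorylation, had the largest difference of the 50 genes and the opposite direction to the rest of its class. Its signals were 177.6 and 152.3 in the controls against 97.8 and 110.4 with GDNF, so both GDNF samples lay below both controls. The mean was 165 ± 17.9 in control and 104 ± 8.91 in GDNF samples (SD, n = 2 each). The log2 fold change was -0.66 (SE 0.16, 95% interval -1.03 to -0.29), 0.634 times the control level. Limma's unadjusted p was 0.00413 and its adjusted p over all probe sets 0.999. Omitting any 1 sample gave values of -0.77 to -0.55. Cdc14a has 1 probe set of its own symbol on the array, so no second measurement of it was at hand.

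**Figure D4:**
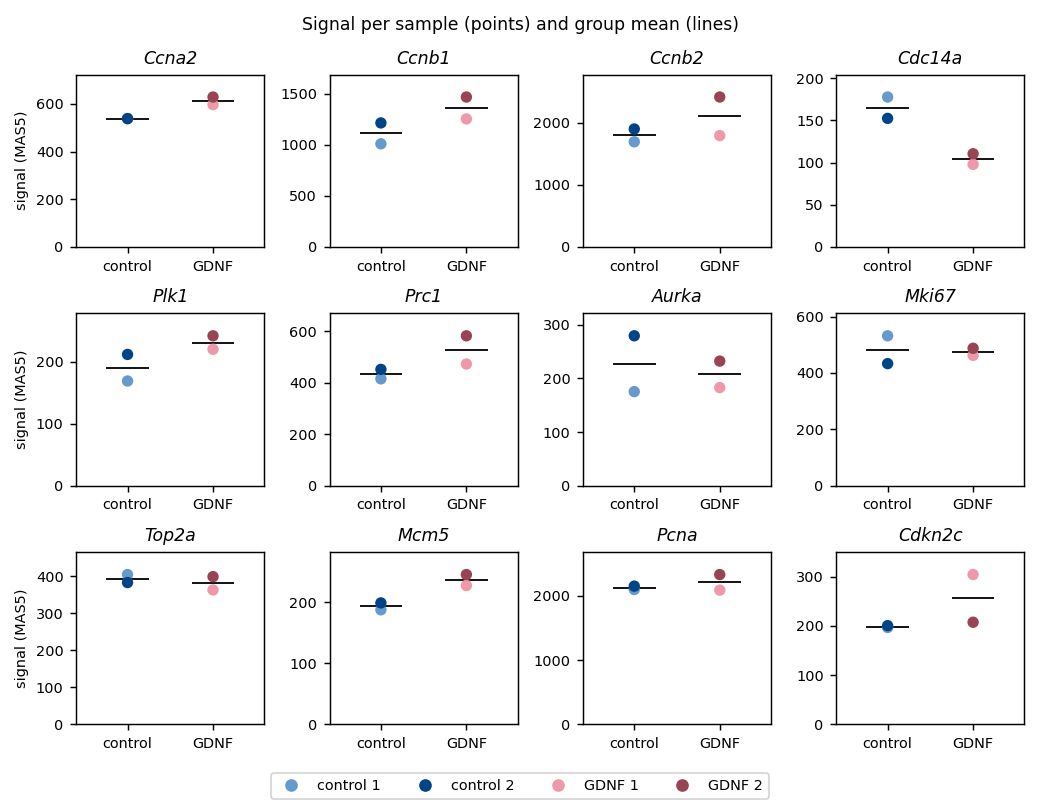
Array signal (vertical axis, from 0) of 12 cell cycle genes in the 2 control and 2 GDNF samples, with points for samples and lines for group means. Cdc14a is lower in both GDNF samples, Mcm5 and Ccna2 are higher in both, and Mki67 and Top2a overlap.

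The CDK inhibitors went both ways, with 2 higher and 2 lower means in GDNF and a median of 0.041. Cdkn2c (p18), an inhibitor of Cdk4 and Cdk6, had 196.9 and 200.6 in the controls against 304.4 and 207.6 with GDNF. The groups did not overlap, but GDNF replicate 2 was close to the controls. The log2 fold change of 0.34 (SE 0.19) was 0.063 without GDNF replicate 1. A dimmer Cdkn2c probe set, below the filter and not tested, went the other way without overlap. It had 23.7 and 18.9 in the controls against 14 and 14.7 with GDNF. The brightest probe sets of Cdkn2c and Ccnd2 were both high in GDNF replicate 1 alone.

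Cdkn1b (p27), which restrains primordial follicle activation in mice, had 808.2 and 1044.3 in the controls against 972.5 and 1104.5 with GDNF, overlapping (0.17, 95% interval -0.17 to 0.51). Without control replicate 1 it was -0.011. Cdkn1a (p21), a target of p53, had 92.7 and 76.3 in the controls against 77.4 and 80.3 with GDNF, overlapping (-0.092, SE 0.18), and 0.047 without control replicate 1. Cdkn1c (p57), an imprinted inhibitor, had 1538.1 and 1849.5 in the controls against 1690.2 and 1281.9 with GDNF (-0.20, SE 0.16). GDNF replicate 2 was its lowest sample, and the difference was 0.0030 without it.

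Some DNA replication genes differed evenly over the samples, while 5 of the 10 tested changed direction when 1 sample was left out. Of 10 tested, 8 had a higher mean in GDNF (against 48.6% of all genes). Groups did not overlap for 4 with GDNF higher and 1 with GDNF lower, against 13.8% and 18.1% of all genes. The class median was 0.056, and 0.017 to 0.14 when any 1 sample was omitted. The Mcm2 to Mcm7 proteins form the ring-shaped helicase that is loaded at origins and unwinds DNA. Mcm5 had signals of 187.3 and 198.6 in the controls against 227 and 244.9 with GDNF. Both GDNF samples were above both controls, with a log2 fold change of 0.29 (SE 0.13, 95% interval -0.011 to 0.59) and 0.23 to 0.34 in the fits that left out 1 sample. Mcm3 had 173 and 195.5 in the controls against 201.7 and 216.6 with GDNF, also without overlap (0.18, SE 0.14).

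The other subunits of the same ring were uneven. Mcm2 had 256.1 and 273.3 in the controls against 217.4 and 286.2 with GDNF, with GDNF replicate 1 the lowest and replicate 2 the highest of the samples (-0.085, SE 0.16, and 0.11 without GDNF replicate 1). Mcm4 did not overlap (0.16, SE 0.14), but its control replicate 2 (190) and GDNF replicate 2 (191.8) were close. Mcm6 (0.029) and Mcm7 (0.057) overlapped. Thus 3 of the 6 subunits had GDNF signals above both controls, against 13.8% of all genes.

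Pcna, the sliding clamp of the replication fork and a common proliferation marker, had 2097.7 and 2150.1 in the controls against 2087.9 and 2329.8 with GDNF. The groups overlapped, with a log2 fold change of 0.054 (95% interval -0.18 to 0.29), so the interval ran from 0.885 to 1.22 times the control level. Rrm1, the large subunit of ribonucleotide reductase, had 518.9 and 455.8 in the controls against 499.2 and 491.5 with GDNF, with GDNF inside the control range (0.026, SE 0.11, and -0.067 without control replicate 2).

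The 2 thymidylate enzymes differed in direction. Tyms, which makes thymidylate from dUMP, had 83.7 and 82.4 in the controls against 95.2 and 95.3 with GDNF, tight in both groups and without overlap (0.20, SE 0.16). Tk1, which salvages thymidine, had 151.9 and 139 in the controls against 133.9 and 131.6 with GDNF, lower in GDNF without overlap (-0.13, SE 0.14). Its 2 dimmer probe sets had the opposite direction, with log2 fold changes of 0.016 (SE 0.15) and 0.39 (SE 0.33).

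Mitotic spindle and chromosome genes had log2 fold changes from -0.10 to 0.32. Of 22 tested, 15 had a higher mean in GDNF (against 48.6% of all genes) and 7 a lower one. Groups did not overlap for 5 with GDNF higher and 0 with GDNF lower, against 13.8% and 18.1% of all genes. The median was 0.11, and it was 0.037 without control replicate 1 and 0.020 without GDNF replicate 2. GDNF replicate 2 was the highest sample for 12 of the 22.

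Plk1, the polo-like kinase of mitotic entry and spindle assembly, had signals of 169 and 211.9 in the controls against 220.2 and 242 with GDNF. The groups did not overlap, but control replicate 2 was near GDNF replicate 1 (0.29, SE 0.15, and 0.12 without control replicate 1). Prc1, which bundles the midzone microtubules for cytokinesis, had 415.8 and 452.6 in the controls against 473.5 and 583.3 with GDNF, without overlap (0.28, SE 0.13). It was 0.13 without GDNF replicate 2. Cenpe, the kinetochore motor that brings chromosomes to the spindle equator, had 108.6 and 138.9 in the controls against 170.7 and 138.1 with GDNF. Control replicate 2 and GDNF replicate 2 were level, and the log2 fold change of 0.32 (SE 0.18) was 0.14 without control replicate 1.

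The other 13 mitotic genes fell outside the rule for giving single samples and are given by range. Of them, 12 had a higher mean in GDNF (92.3%, against 48.6% of all genes). Most mitotic genes with a lower mean are among those described sample by sample. The log2 fold changes of these 13 ran from -0.055 to 0.22. The groups did not overlap for 3 of them, all with GDNF higher (23.1%, against 13.8% of all genes). They were the spindle protein Nusap1 (0.20), the checkpoint kinase Bub1b (0.18) and the ubiquitin-conjugating enzyme Ube2c of the anaphase-promoting complex (0.13). For Nusap1 this was a near tie, with 697.4 in control replicate 2 against 697.5 in GDNF replicate 1. The kinesins Kif23 (0.22) and Kif20a (0.19), motors of the central spindle, overlapped. Birc5 (0.13, SE 0.25), the survivin subunit of the chromosomal passenger complex, and Ttk (0.13, SE 0.20), a spindle checkpoint kinase, had wide errors.

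The genes most used to mark dividing cells differed by less than their spread. Mki67, the Ki-67 protein of cycling nuclei, had 531.7 and 433 in the controls against 462.2 and 487.4 with GDNF, with GDNF inside the control range. Its log2 fold change was -0.016 (95% interval -0.33 to 0.29), or 0.798 to 1.23 times the control level, and 0.00071 after median centring. Top2a, topoisomerase II alpha, had 405.2 and 383.6 in the controls against 363.6 and 399.6 with GDNF, overlapping (-0.049, interval -0.32 to 0.22). A second probe set of Top2a had -0.090 (SE 0.17).

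The Aurora kinases and the anaphase activator Cdc20 had the lowest log2 fold changes of the class. Aurka, the kinase of centrosome maturation, had 175.4 and 279.5 in the controls against 182.9 and 232.3 with GDNF. Both groups were spread, and replicate 2 was the higher in each (-0.10, 95% interval -0.66 to 0.45). The difference was -0.44 without control replicate 1 and 0.23 without control replicate 2. Aurkb, the kinase of the chromosomal passenger complex, had 150.3 and 145.5 in the controls against 127.9 and 156.2 with GDNF (-0.065, SE 0.16).

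Cdc20 had 169 and 230.4 in the controls against 216.4 and 157.3 with GDNF (-0.096, SE 0.21), with overlap. Smc4, a core ATPase of condensin, which compacts chromosomes, had 130.4 and 136.1 in the controls against 120.2 and 144.7 with GDNF. Its brightest probe set showed no separation (-0.014, 95% interval -0.38 to 0.35, and 0.0020 after median centring). A dimmer probe set of Smc4 had 32.9 and 31 in the controls against 55.6 and 53.6 with GDNF, with both GDNF samples above both controls (0.76, SE 0.22). The 2 Smc4 probe sets therefore did not measure the same difference. Smc2, its partner in condensin, had -0.055 (SE 0.13).

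Several genes were measured more than once. Of the 12 cell cycle genes with 2 or 3 tested probe sets, 7 had the same direction in all of them and 5 did not. The 5 were Ccnd1, Cdk2, Tk1, Mad2l1 and Smc4. For Nusap1 both probe sets gave nearly equal values (0.20 and 0.19), and for Ttk the dimmer one was the higher (0.28 beside 0.13).

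**Figure D5:**
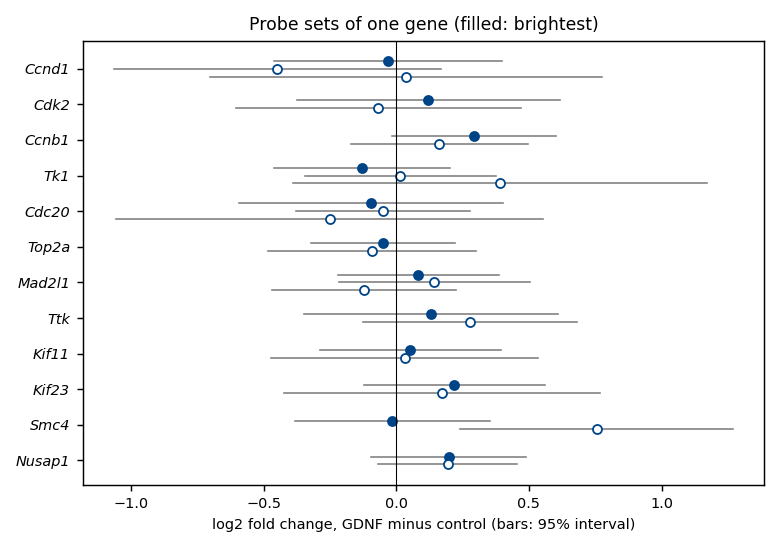
Log2 fold change (GDNF minus control) with limma's 95% interval for each tested probe set of the 12 cell cycle genes with several, the brightest filled. The probe sets of Smc4 are farthest apart, at -0.014 and 0.76.

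Genes with and without the promoter elements are set side by side as a description. Over all classes, the 15 tested genes with CHR letters had a median log2 fold change of 0.057 and the 26 without had 0.10. The 11 genes with E2F letters had a median of 0.057 and the 30 without had 0.11. The 30 genes with CCAAT letters had a median of 0.13 and the 11 without had 0.056. Top2a and Ccnb1, printed above, both hold CCAAT letters and had log2 fold changes of -0.049 and 0.29. These medians are given with no test.

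Further cell cycle genes were listed apart from the 53, and none passed the adjusted threshold in limma's test. Their counts stand beside 48.6% of all genes with a higher mean in GDNF, and 13.8% (higher) and 18.1% (lower) without overlap. Of 24 other replication genes tested, 19 had a higher mean in GDNF, 8 without overlap, and 5 a lower one, all overlapping (median 0.12). The highest were Uhrf1 (0.43, SE 0.19), which maintains DNA methylation at the fork, and the helicase partner Cdc45 (0.29, SE 0.16). The lowest were the clamp loader subunits Rfc4 (-0.073) and Rfc5 (-0.068). GDNF replicate 2 was the highest sample for 17 of the 24.

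Of 30 other mitotic genes tested, 23 had a higher mean in GDNF and 7 a lower one, with a median of 0.13. Groups did not overlap for 6 with GDNF higher and 3 with GDNF lower. The centromeric histone Cenpa (0.48, SE 0.38) and the spindle protein Spag5 (0.43, SE 0.27) were highest, both overlapping. Cenpa was dim and near the filter, at 14.2 and 26.5 in the controls against 24.8 and 30.4 with GDNF. The lowest were Incenp of the chromosomal passenger complex (-0.36, SE 0.22) and the condensin subunit Ncapd2 (-0.27, SE 0.15), neither of which overlapped. GDNF replicate 2 was the highest sample for 22 of the 30 and control replicate 1 the lowest for 18.

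The 26 other regulators tested split evenly, with 12 higher, 14 lower and a median of -0.0098. Chek2 (0.51, SE 0.29), a DNA damage kinase, and Foxm1 (0.39, SE 0.17), a transcription factor of G2 and M genes, were highest. Chek2 was dim and near the filter, at 23.2 and 24.1 in the controls against 39.8 and 29.3 with GDNF. Foxm1 had 99.2 and 87.4 in the controls against 113.1 and 132.6 with GDNF, without overlap. The lowest were E2f2 (-0.16, SE 0.20) and Ccng1 (-0.29, SE 0.11), a p53 target with 547 and 523.8 in the controls against 456.5 and 416.9 with GDNF, also without overlap.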

How the data were processed

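Total RNA of 2 control and 2 GDNF samples was measured on 1-colour Affymetrix arrays. The values deposited by the authors are linear intensities, called signals, from MAS5 per the submitters' processing notes, with no version given. Low MAS5 signals are noisy. Every array had the same trimmed mean (125.03 to 125.04, trimming 2% at each end), so total RNA per ovary is not measured. Detection calls were not used here.

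Of 31099 probe sets, 57 Affymetrix controls were left out. On the log2(signal + 1) scale, 18630 probe sets with a mean signal at or above the 40th percentile (21.9) were tested. Names came from GEO's platform annotation: 20826 probe sets had 1 symbol, 436 several and 9780 none. All 51 Entrez identifiers of the cell cycle genes were in the RefSeq table of GRCr8, with 0 symbols changed. Promoter sequences are RefSeq's.

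Groups, taken from the titles, were the only term of a two-sided linear model (limma 3.58.1, R 4.3.3, with its trended prior). P-values were adjusted over all probe sets tested (Benjamini-Hochberg), with a threshold of 0.05. The fit was also run on simulated data, drawn with independent samples from the spread that it had itself estimated. That run checks the code and cannot show that the model suits these 4 arrays. No list was tested as a set. The genes, their classes and the other lists were chosen with earlier results of these data known.

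Signals per sample are given for the 3 highest and 3 lowest fold changes of each class, genes with an unadjusted p under 0.05, Mki67, Top2a, Pcna, Ccnd2, Cdkn1b, Cdc14a, Smc4 and genes below the filter. For the further lists the 2 highest and 2 lowest are named. Ccne2 and the sample values of Foxm1, Ccng1, Chek2, Cenpa, Mcm4, Nusap1 and dimmer probe sets were added after their values were seen. The settings varied were the pseudocount (16), the filter (none, or the 60th percentile), the scaling (quantile normalization or median centring), the trend (none), the replicate number (as a block), the probe set rule (mean over probe sets) and the samples (each left out in turn).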

Additional observations from a re-analysis of the deposited data

How the results depend on the processing

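Counts and class medians depended mainly on which samples were used. With each sample left out, members with a higher mean in GDNF numbered 28 to 39 of 50. Members without overlap numbered 18 to 29 (GDNF higher) and 7 to 14 (GDNF lower), against 14 and 2 with all samples. By construction, 1 sample against 2 overlaps less often. The shares of all genes given earlier are for 2 against 2 samples and do not apply to these fits. Shares over all genes were not computed with a sample left out, so these counts cannot tell a lean from the background. The median was 0.042 to 0.14 for all members, -0.010 to 0.10 for G1 and S phase genes, 0.10 to 0.27 for G2 and M phase genes, -0.0017 to 0.14 for CDK inhibitors, 0.017 to 0.14 for DNA replication and 0.020 to 0.15 for mitotic genes. In these fits limma called 0 probe sets, with 146 to 1924 at an unadjusted p under 0.05. Depth of signal limits the dim genes, such as Cdk6.

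Of the genes given sample by sample, these changed direction when 1 sample was left out, with the range over the samples: Aurka -0.44 to 0.23, Aurkb -0.21 to 0.078, Ccnb2 -0.00016 to 0.43, Ccnd1 -0.16 to 0.10, Ccnd2 -0.089 to 0.65, Ccnd3 -0.14 to 0.10, Cdc20 -0.33 to 0.13, Cdk2 -0.079 to 0.32 and Cdkn1a -0.23 to 0.047. The rest of these were Cdkn1b -0.011 to 0.36, Cdkn1c -0.40 to 0.0030, E2f1 -0.21 to 0.021, Mcm2 -0.28 to 0.11, Mki67 -0.16 to 0.13, Pcna -0.025 to 0.13, Rrm1 -0.067 to 0.12, Smc4 -0.15 to 0.12 and Top2a -0.12 to 0.019. Another 12 members also turned: Ccne1, Cdk4, Mcm6, Mcm7, Bub1, Mad2l1, Ttk, Cenpf, Kif11, Smc2, Birc5 and Cdca3, with values between -0.26 and 0.48. The cause was not tested.

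Median centring turned Mki67 to 0.00071 and Smc4 to 0.0020, and Cdk4 to 0.0038. After it, 37 members had a higher mean in GDNF, against 34 in the main setting. Members without overlap, GDNF higher, fell to 10, against 14. No share over all genes is given for this setting. The mean over a gene's probe sets turned Tk1 to 0.093 and Smc4 to 0.37. It also moved Ccnd1 to -0.15, Cdk2 to 0.027 and the G1 and S phase median to 0.027 (from 0.054). At the 60th percentile filter the G1 and S phase median was 0.021 (49 members tested, against 50). With the replicate block, 2 probe sets were called, of Arg2 and Stc1 (named after their values were seen), and 0 members. Same-numbered samples deviated together (r = 0.321 over probe sets), but nothing states what a replicate number stands for, so the numbers were not taken as pairs. The other alternatives called 0 members, and left the counts within 1.5 times and the directions of the genes given sample by sample.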
